A study of Bos taurus with 8 samples.

Results

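The integrin and laminin genes described here are the 36 genes whose symbols name an integrin alpha chain (18 genes), an integrin beta chain (8 genes) or a laminin chain (10 genes) in the bovine annotation of the deposited files. They were picked by symbol from the 24024 named genes on chromosomes 1 to 29, and these families were set with earlier results of the data known. The 36 genes covered 949 of the 902984 consecutive 3 kb windows into which the UMD v3.1 genome was divided. In each gene the first window by strand, the window nearest to the promoter, was kept apart from the others, which gave 36 first windows and 913 other windows. The values are read counts from MIRA-Seq, a pull-down with methyl-binding domain proteins in which sonicated DNA with more methylated CpG sites yields more reads. Genomic DNA came from dermal fibroblast cultures at passage 5 that had received no treatment, 1 culture and 1 library per animal, from 4 Holstein and 4 Angus heifers of the same age at skin sampling. Holstein is a dairy breed and Angus a beef breed, and the comparison asks whether DNA methylation in these cells differs between them. Both breeds were grown in the same medium with serum, neither had been exposed to lipopolysaccharide (cultures are numbered Holstein 1 to 4 and Angus 1 to 4 after the animals).

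Laminins are large basement membrane proteins, each a trimer of an alpha, a beta and a gamma chain, and they bind cells at the border between epithelium, muscle or vessel and connective tissue. Integrins are the cell surface receptors for laminins, collagens, fibronectin and other ligands, and each is a pair of an alpha and a beta chain that joins the matrix outside the cell to the actin cytoskeleton inside it. Dermal fibroblasts live in a collagen matrix and adhere to it through integrins, while several members of both families are known mainly from epithelial cells or leukocytes. Methylated CpG at a promoter is usually found at silent genes, whereas CpG in the body of a gene is methylated in most mammalian cells.

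The total over windows, used as the library size, lay between 18691111 and 35525554 reads per library, of which the 949 windows held 11498 to 32692. Levels below are in CPM, the usual scaling of read counts to the library total, in which a floor of 3 reads in a window was 0.0844 to 0.161, and this floor covers counting error only. Holstein 1 and Angus 3 stood apart from the other libraries: the top 1% of windows held 69.0% and 72.4% of their reads, against 46.8 to 57.4% elsewhere, and their share of reads on chromosomes 1 to 29 was 78.3% and 72.5%. Of the 36 genes, Holstein 1 had the lowest CPM per window of its breed in 36 and Angus 3 in 34. No pair of libraries of a breed had counts alike within sampling noise. Reads depend on CpG density and on the efficiency of the pull-down as well as on methylation, no input library was used here, and these cannot be told apart in a single window. The assay reads DNA, so the labelled cell type could be set only against the methylation of marker genes. First windows of 10 fibroblast marker genes had a mean of 0.0248 to 0.341 CPM (median 0.155), and those of the epidermal, leukocyte, endothelial and melanocyte lists had medians of 1.43, 0.746, 0.550 and 0.579 CPM over 5, 5, 5 and 4 genes. These lists spread widely, from 0.333 to 1.99, 0.301 to 3.76, 0.169 to 2.89 and 0.113 to 2.01 CPM, and the lowest genes of each (EPCAM, PTPRC, TEK, and MITF with PMEL) lay inside the fibroblast range. Among the fibroblast markers DCN, LUM and COL3A1, which encode matrix proteins of the dermis, were lowest, at 0.0248, 0.0435 and 0.0528 CPM.

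First windows carried fewer reads than the mean of the other windows of the same genes. Within a library the median over the 36 genes was 0.451 ± 0.142 CPM (SD, n = 8 libraries) in first windows and 0.798 ± 0.165 CPM per window in the other windows, a ratio of 0.554 ± 0.0877 that was below 1 in 8 of 8 libraries. In 29 of the 36 genes (80.6%) the first window lay below the mean of the others. Over 19859 named genes with more than 1 window the corresponding medians were 0.395 and 0.573 CPM, the ratio was 0.688 and the share of genes was 66.1%. Single windows pooled over the 36 genes gave a smaller gap, with medians of 0.4996 CPM in first windows and 0.518 CPM in the others. Pooled over all named genes these medians were 0.404 and 0.348 CPM, with first windows higher. The per-library medians for members ranged from 0.252 (Angus 3) to 0.576 CPM (Angus 1) in first windows and from 0.541 to 0.973 CPM in the others, so the ranges of both classes touched only through Holstein 1 and Angus 3. Without these libraries the ratio was 0.587. A first window is a stand-in for the promoter: 28 of the 36 held coding exon 1, those of ITGAE and ITGA4 held coding exon 2, and those of ITGB1, ITGB2, ITGB4, ITGB7, ITGA3 and LAMB3 held no coding exon. Counting the first 2 windows of each gene in place of the first gave a ratio of 0.689.

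**Figure D1:**
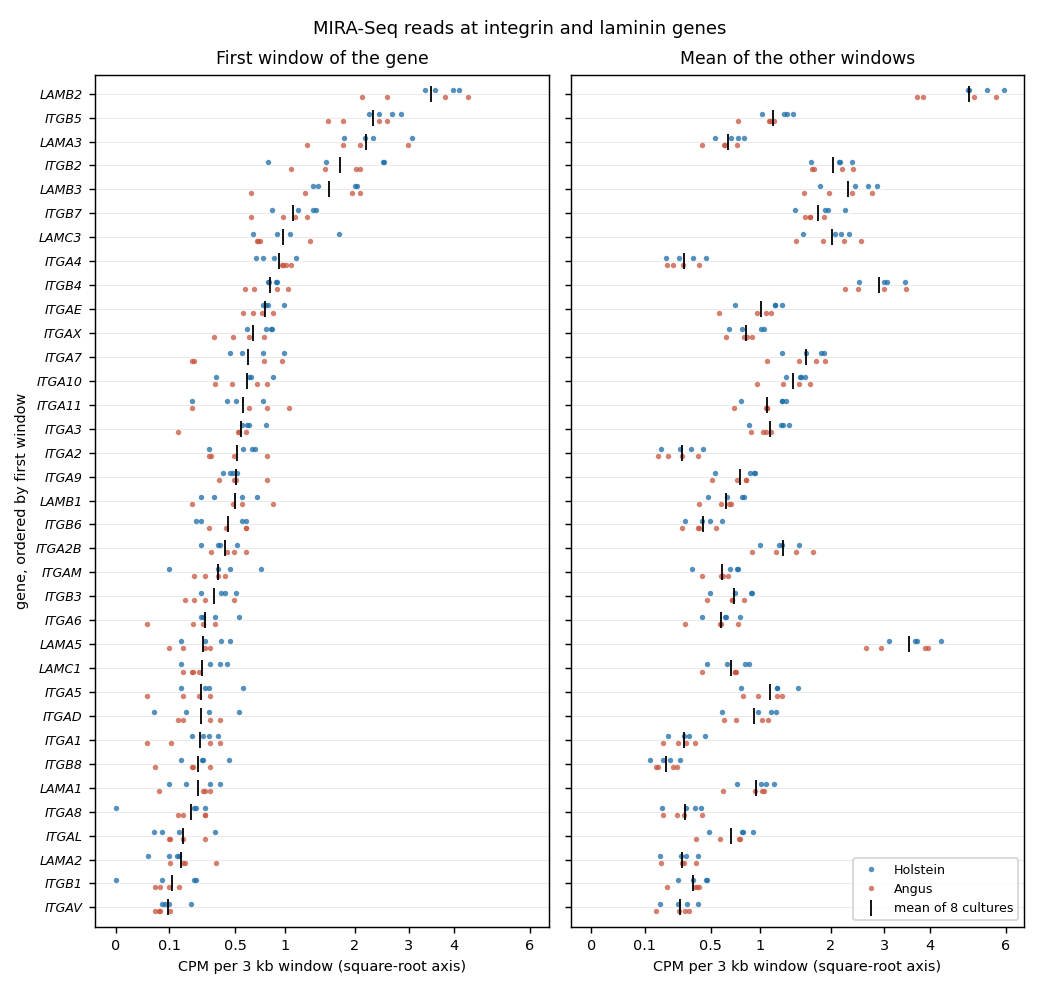
MIRA-Seq reads per 3 kb window in the first window (left) and the mean of the other windows (right) of 35 of the 36 genes, in CPM on a square-root axis, with 1 point per culture and a bar at the mean of 8 cultures. LAMB2, ITGB5 and LAMA3 lead the first windows at 3.48, 2.32 and 2.19 CPM, LAMA5 falls from 3.52 CPM in its other windows to 0.266 CPM in its first, and Holstein and Angus points overlap in every row.

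Along the genes the last window carried more reads than the first, with no steady rise between them. In the 29 genes with at least 10 windows the median was 0.444 CPM in the first window and 0.628 CPM in the last. Windows 2 to 10 varied between 0.441 CPM (window 3) and 0.638 CPM (window 10), and windows 8 and 9, at 0.465 and 0.497 CPM, lay below window 4, at 0.626 CPM. The last window exceeded the first in the same order over all named genes of that length, at 0.501 against 0.324 CPM. Windows that touch a coding exon carried more reads than those in introns or non-coding parts: leaving out first windows, the medians were 0.662 CPM over 470 windows and 0.460 CPM over 443, and the order was the same in 8 of 8 libraries. It held in 21 of the 32 genes with both kinds (65.6%), against 68.1% of all named genes. Shorter genes had more reads per window. Across the 36 genes, which share the 8 libraries and differ in base composition, Spearman's rho of length with CPM per window was -0.591, and it was -0.12 over all named genes. Of the other windows 221 of 913 (24.2%) had a mean of at least 1 CPM, against 18.2% of all such gene windows, and of first windows 6 of 36 (16.7%), against 20.6%.

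Laminin alpha chains carry the cell-binding domains of the trimer, and LAMA5, the alpha chain of laminins in skin and vessel basement membranes, had the sharpest contrast along a gene. Its 19 windows lie at chr13:55377797-55434796. The first window, with coding exon 1, held 0.152, 0.3895, 0.454 and 0.282 CPM in Holstein 1 to 4 and 0.314, 0.278, 0.101 and 0.161 CPM in Angus 1 to 4. The mean over all its windows was 2.95, 3.497, 3.53 and 4.07 CPM in Holstein 1 to 4 and 2.52, 3.695, 2.78 and 3.76 CPM in Angus 1 to 4. No first window exceeded 0.454 CPM and no gene value fell under 2.52 CPM, and the mean of the other windows was 13.2 times that of the first. Its gene mean of 3.35 ± 0.538 CPM exceeded that of 94.97% of named genes, while 33.1% of first windows in the genome lay below its first. Coding-exon windows of LAMA5 had a mean of 4.38 CPM and its windows without a coding exon 1.29 CPM. Window 11, at chr13:55407797-55410796 with coding exon 15, held 7.64, 7.098, 7.302 and 8.501 CPM in Holstein 1 to 4 and 4.15, 7.48, 6.58 and 8.29 CPM in Angus 1 to 4. Window 17, at chr13:55425797-55428796 with coding exon 56, held 6.88, 7.75, 6.55 and 7.26 CPM in Holstein 1 to 4 and 4.57, 6.78, 5.91 and 8.88 CPM in Angus 1 to 4. In both windows Angus 1 was lowest, Angus 4 or Holstein 4 highest, and the breeds overlapped.

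LAMA3, the alpha chain of the epithelial laminin that anchors epidermis to dermis, had the opposite order. Its first window, at chr24:33156731-33159730 with coding exon 1, held 1.82, 3.07, 2.31 and 2.17 CPM in Holstein 1 to 4 and 1.82, 2.09, 1.28 and 2.996 CPM in Angus 1 to 4. The mean of 2.19 ± 0.606 CPM was 3.37 times the 0.651 CPM of its other windows, higher in 8 of 8 libraries, and exceeded 92.6% of first windows. LAMA2, the laminin alpha chain of muscle and nerve, was low throughout its 52 windows at chr9:68511651-68667650. The gene mean was 0.163, 0.395, 0.275 and 0.3096 CPM in Holstein 1 to 4 and 0.381, 0.296, 0.171 and 0.287 CPM in Angus 1 to 4. Reads in its first window numbered 2, 3, 1 and 5 reads in the 4 Holstein cultures and 10, 3, 5 and 3 in Angus 1 to 4, which is 0.101, 0.1298, 0.0378 and 0.141 CPM in Holstein 1 to 4 and 0.349, 0.104, 0.168 and 0.161 CPM in Angus 1 to 4. Only Angus 1 held more than 5 reads there, and most libraries lay near the floor. LAMA1, an alpha chain of early embryonic basement membranes, had 0.236 ± 0.110 CPM in its first window and 0.947 ± 0.185 CPM in the others.

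The beta chains form short arms of the trimer. LAMB2, found in laminins of muscle, kidney and vessel, had the highest level of the 36 genes in both classes of window. Its 5 windows lie at chr22:51455667-51470666. The first held 3.34, 4.11, 3.56 and 3.97 CPM in Holstein 1 to 4 and 2.58, 4.35, 2.12 and 3.799 CPM in Angus 1 to 4. Over the whole gene the values were 4.64, 4.82, 5.1 and 5.55 CPM in Holstein 1 to 4 and 3.48, 4.97, 3.51 and 5.33 CPM in Angus 1 to 4. Angus 1 and Angus 3 were lowest in both. The first window exceeded 96.8% of all first windows and the gene 97.9% of named genes. Window 4, at chr22:51464667-51467666 with coding exon 16, held 7.74, 7.92, 8.17 and 7.94 CPM in Holstein 1 to 4 and 6.07, 7.93, 6.21 and 8.4 CPM in Angus 1 to 4. Window 5, at chr22:51467667-51470666 with coding exon 24, held 7.43, 6.75, 7.19 and 9.18 CPM in Holstein 1 to 4 and 4.57, 7.197, 4.84 and 7.97 CPM in Angus 1 to 4. Holstein values were close together in window 4, and the breeds overlapped in both windows.

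LAMB3 is the beta chain that assembles with LAMA3 in the epithelial laminin. Its first window, at chr16:75565181-75568180 and without a coding exon, held 1.37, 1.43, 2.04 and 1.999 CPM in Holstein 1 to 4 and 1.26, 1.95, 0.638 and 2.09 CPM in Angus 1 to 4. The mean over its 16 windows was 1.79, 2.59, 2.41 and 2.799 CPM in Holstein 1 to 4 and 1.92, 2.36, 1.52 and 2.71 CPM in Angus 1 to 4. Angus 3 was lowest in both. Its reads were concentrated in the 3′ part, where window 11, at chr16:75595181-75598180 with coding exon 10, had the highest mean of the 949 windows (7.98 ± 2.02 CPM). There it held 6.12, 8.66, 8.48 and 9.06 CPM in Holstein 1 to 4 and 6.07, 7.997, 5.68 and 11.8 CPM in Angus 1 to 4. Angus 4 gave the highest value and the other Angus cultures lay within or below the Holstein range. The deepest coverage in the 5 other windows with the most reads, those named here for LAMB3, LAMB2 and LAMA5, was between 28 and 35 reads at any base. LAMB1, the beta chain of most laminins, lay lower, at 0.496 ± 0.227 CPM in the first window and 0.634 ± 0.141 CPM in the others.

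The gamma chains complete the trimer. LAMC1, part of most laminins and the chain that binds nidogen, had 0.261 ± 0.103 CPM in its first window and 0.678 ± 0.156 CPM in the others. LAMC3 lay higher in both, at 0.978 ± 0.385 and 2.03 ± 0.372 CPM. Among first windows of laminin chains LAMB2 (3.48 CPM), LAMA3 (2.19 CPM) and LAMB3 (1.60 CPM) were highest, LAMC3 and LAMB1 had 0.978 and 0.496 CPM, and LAMA5, LAMA1, LAMA2 and LAMC1 had 0.149 to 0.266 CPM.

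**Figure D2:**
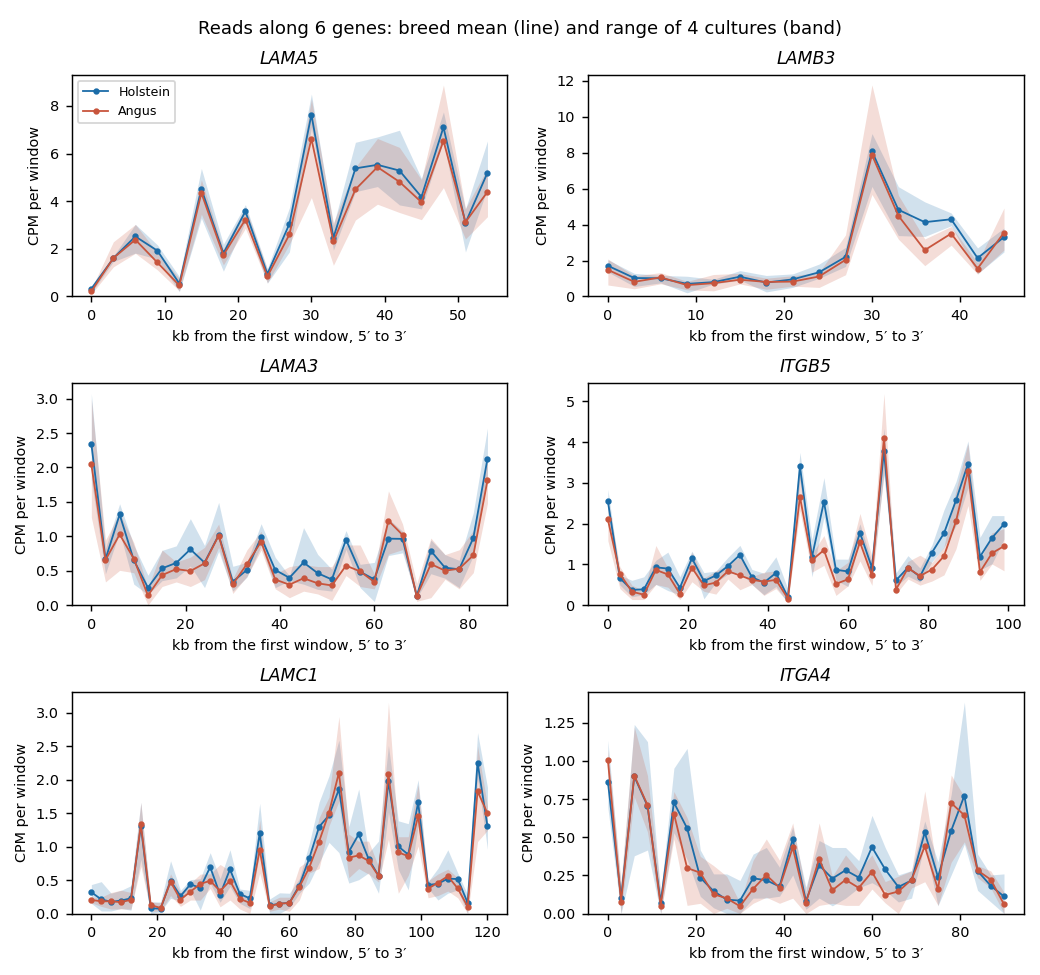
Mean CPM per 3 kb window along LAMA5, LAMB3, LAMA3, ITGB5, LAMC1 and ITGA4 against the distance in kb from the first window, 5′ to 3′, with a line per breed (n = 4) and a band from the lowest to the highest culture. LAMA5 and LAMB3 start at 0.266 and 1.60 CPM and peak at 7.13 and 7.98 CPM inside the gene. LAMA3 and ITGA4 are highest at the first window, which in ITGA4 holds coding exon 2. The Holstein and Angus bands overlap along most of each gene.

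Collagen-binding alpha chains all pair with ITGB1. ITGA11 and ITGA1 are the chains of fibroblasts and other connective tissue cells. ITGA11 had 0.572 ± 0.296 CPM in its first window and 1.07 ± 0.225 CPM in the others. ITGA1, over 40 windows at chr20:26115918-26235917, was among the 5 lowest genes, with 0.205, 0.449, 0.301 and 0.336 CPM in Holstein 1 to 4 and 0.377, 0.315, 0.175 and 0.261 CPM in Angus 1 to 4. ITGA2, which lies beside it and also serves platelets and epithelium, was lower still in its gene mean, with 0.171, 0.446, 0.286 and 0.356 CPM in Holstein 1 to 4 and 0.4101, 0.294, 0.158 and 0.208 CPM in Angus 1 to 4. In both genes Holstein 1 and Angus 3 were lowest in their breed and the breeds overlapped. The first window of ITGA2 had 0.514 ± 0.192 CPM, 1.80 times its other windows and higher in 8 of 8 libraries. ITGA10, a chain of cartilage, had 0.600 ± 0.194 CPM in its first window and 1.43 ± 0.230 CPM in the others.

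The chains that bind the RGD motif of fibronectin and vitronectin had the lowest first windows as a group, with a median of 0.227 CPM over 4 genes. ITGAV, the vitronectin receptor chain, was lowest of all 36. Its first window, at chr2:9758034-9761033 with coding exon 1, held 2, 2, 2 and 7 reads in the 4 Holstein cultures and 3, 2, 2 and 1 in Angus 1 to 4, or 0.101, 0.0866, 0.0757 and 0.197 CPM in Holstein 1 to 4 and 0.105, 0.0695, 0.0672 and 0.0535 CPM in Angus 1 to 4. Holstein 4 was highest, and 5 of the 8 libraries held exactly 2 reads. The gene mean of ITGAV was 0.165, 0.391, 0.257 and 0.316 CPM in Holstein 1 to 4 and 0.326, 0.303, 0.143 and 0.263 CPM in Angus 1 to 4. The first window of ITGA8, at chr13:30527097-30530096, held 0, 0.216, 0.227 and 0.282 CPM in Holstein 1 to 4 and 0.279, 0.278, 0.134 and 0.161 CPM in Angus 1 to 4. Holstein 1 held 0 reads there, which allows up to 0.152 CPM, and the breeds overlapped. ITGA5, the main fibronectin receptor chain, had 0.257 ± 0.157 CPM in its first window against 1.12 ± 0.246 CPM in the others, lower in 8 of 8 libraries. ITGA2B, the platelet fibrinogen receptor chain, had 0.419 ± 0.111 and 1.28 ± 0.270 CPM.

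Among the laminin-binding alpha chains, which are the receptors for the laminins above, every first window lay below the mean of the other windows in 8 of 8 libraries. ITGA3, ITGA6 and ITGA7 had 0.546 ± 0.187, 0.282 ± 0.142 and 0.616 ± 0.311 CPM in first windows and 1.11 ± 0.182, 0.586 ± 0.155 and 1.61 ± 0.302 CPM in the others. ITGA4 and ITGA9, which bind fibronectin, VCAM or tenascin, differed. ITGA4 had 0.936 ± 0.152 CPM in its first window, 3.09 times its other windows and higher in 8 of 8 libraries. That window held coding exon 2, so it may not hold the promoter. ITGA9 had 0.503 ± 0.130 CPM, below the 0.776 ± 0.168 CPM of its other windows in 8 of 8 libraries.

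Alpha chains of leukocytes pair with ITGB2 or, for ITGAE, with ITGB7. All 5 had a first window below the mean of the others. ITGAL, the chain of the lymphocyte adhesion receptor, had the lowest, at chr25:26909601-26912600 with coding exon 1, and held 0.0506, 0.346, 0.0757 and 0.141 CPM in Holstein 1 to 4 and 0.279, 0.104, 0.101 and 0.161 CPM in Angus 1 to 4. Holstein 2 and Angus 1, with 8 reads each, were highest, and the others held at most 5 reads. ITGAD, ITGAM, ITGAX and ITGAE had 0.257, 0.367, 0.664 and 0.776 CPM in first windows and 0.920, 0.601, 0.839 and 1.01 CPM in the others. Both leukocyte beta chains had more reads. In ITGB2, the shared chain of these receptors, the first window at chr1:145131901-145134900 held 0.809, 2.51, 1.55 and 2.51 CPM in Holstein 1 to 4 and 1.54, 2.02, 1.08 and 2.09 CPM in Angus 1 to 4. The gene mean over 11 windows was 1.61, 2.17, 2.11 and 2.39 CPM in Holstein 1 to 4 and 1.71, 2.18, 1.64 and 2.36 CPM in Angus 1 to 4. Holstein 1 and Angus 3 were lowest in their breed in both. ITGB7 had 1.10 ± 0.264 and 1.80 ± 0.255 CPM.

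The other beta chains spanned nearly the whole range of levels. ITGB1, the partner of most alpha chains and used by nearly every adherent cell, had the second lowest first window. It lies at chr13:20246097-20249096 without a coding exon and held 0, 0.216, 0.0757 and 0.225 CPM in Holstein 1 to 4 and 0.1396, 0.0695, 0.101 and 0.0535 CPM in Angus 1 to 4. Holstein 1 held 0 reads there, and no library exceeded 0.225 CPM. ITGB5, a vitronectin receptor chain of fibroblasts and other cells, had the second highest. Its first window, at chr1:69899101-69902100 with coding exon 1, held 2.43, 2.25, 2.84 and 2.67 CPM in Holstein 1 to 4 and 1.82, 2.43, 1.58 and 2.57 CPM in Angus 1 to 4. The lowest library had 1.58 CPM, and the mean of 2.32 ± 0.429 CPM was 2.01 times that of the other windows and higher in 8 of 8 libraries. ITGB4, the epithelial laminin receptor chain of hemidesmosomes, had one of the highest gene means, with 2.35, 2.79, 2.85 and 3.201 CPM in Holstein 1 to 4 and 2.34, 2.81, 2.104 and 3.19 CPM in Angus 1 to 4. Its first window lay lower, at 0.831 ± 0.145 CPM. ITGB8, which activates latent TGF-beta, had the lowest gene mean, with 0.122, 0.276, 0.182 and 0.223 CPM in Holstein 1 to 4 and 0.259, 0.233, 0.147 and 0.1501 CPM in Angus 1 to 4. The highest of these values, 0.276 CPM, lay below the lowest of ITGB4, 2.10 CPM. ITGB3 and ITGB6 had 0.339 ± 0.128 and 0.444 ± 0.162 CPM in first windows and 0.709 ± 0.165 and 0.434 ± 0.107 CPM in the others.

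No integrin or laminin window was called different between Holstein and Angus cultures. Windows were tested with edgeR's likelihood-ratio test on TMM-normalized counts, where a call needed a false discovery rate (FDR) under 0.1 and a fold change of at least 2, and fold changes are given as log2 of Holstein over Angus. Of the 949 windows 248, in 32 of the 36 genes, reached 1 CPM in at least 4 libraries; ITGA2, ITGA4, ITGAV and ITGB8 had none. With edgeR 0 of the 248 were called, against 0.231% of the 115360 windows tested in the genome, and 0 were called by the quasi-likelihood test or by DESeq2. At an unadjusted p under 0.05 the counts by the 3 tests were 11, 9 and 8. Those 11 windows, of which 7 had more reads in Holstein and 4 in Angus, made up 4.44% of the windows tested, against 4.94% of all windows. The 95% interval of the fold change lay inside 2-fold either way in 242 of the 248 windows. The log2 fold change had a median of 0.01 over these windows and ranged from -0.51 to 0.83. Scaling to total counts without TMM moved the median over all windows by 0.14, toward Holstein, so the CPM values printed here lie slightly higher in Holstein than the fitted changes show. Overlap or separation of the breeds is given for CPM before TMM. It can change with the TMM factors, which ran from 0.677 in Angus 3 to 1.22 in Holstein 4.

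ITGB5 window 19 was the window with the smallest p. It lies 54 kb into the gene at chr1:69845101-69848100, touches no coding exon, and held 43, 62, 57 and 111 reads in the 4 Holstein cultures and 44, 49, 29 and 22 in Angus 1 to 4. In CPM these are 2.18, 2.68, 2.16 and 3.13 CPM in Holstein 1 to 4 and 1.54, 1.704, 0.974 and 1.18 CPM in Angus 1 to 4. Each Holstein culture was above each Angus culture. The window was picked for its small p, so this order in the same values is a description and no separate test. The means were 2.54 ± 0.463 and 1.35 ± 0.332 CPM (SD, n = 4 per breed), and the log2 fold change in edgeR was 0.75 (SE 0.18, FDR = 0.0172), a fold of 1.68 and so under the minimum. It was the only integrin or laminin window with FDR under 0.1 when no fold was required, a condition met by 0.368% of all windows tested. Its FDR depended on the test and on single cultures, with 0.117 in the quasi-likelihood test, 0.113 in DESeq2, 0.24 with total counts, 0.13 without a CPM filter, 0.207 without Holstein 4, 0.126 without Angus 4 and 0.0595 without Holstein 1 and Angus 3. Neighbouring windows on both sides overlapped between breeds, as 1.17 ± 0.491 and 1.10 ± 0.204 CPM on the side toward the start of the gene and 0.864 ± 0.278 and 0.518 ± 0.267 CPM on the other.

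LAMB3 window 13, at chr16:75601181-75604180 without a coding exon, held 3.34, 4.42, 3.52 and 5.26 CPM in Holstein 1 to 4 and 2.304, 3.199, 1.71 and 3.103 CPM in Angus 1 to 4. Each Holstein value exceeded each Angus value. The log2 fold change was 0.56 (SE 0.16, edgeR FDR = 0.104), and the FDR ranged from 0.0571 to 0.987 over 19 alternatives. In CPM before TMM the next window toward the 3′ end, with coding exon 18, did not overlap either, at 4.30 ± 0.316 and 3.501 ± 0.470 CPM. Its log2 fold change in edgeR, with TMM, was only 0.15 (SE 0.16). ITGA9 window 17, at chr22:10993767-10996766 with coding exon 5, held 0.809, 1.56, 1.4 and 1.32 CPM in Holstein 1 to 4 and 0.454, 1.08, 0.369 and 0.696 CPM in Angus 1 to 4. Angus 2 lay inside the Holstein range in CPM before TMM, and the log2 fold change was 0.83 (SE 0.26, edgeR FDR = 0.202). This window reached 1 CPM only in Holstein 2, Holstein 3, Holstein 4 and Angus 2, so it passed the filter mainly through the breed where it was higher. It dropped out of testing when any of these cultures was left out.

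In CPM before TMM the 3 windows with the smallest p among those higher in Angus all overlapped between breeds. Angus 3, the library with the smallest TMM factor (0.677), was the lowest Angus culture in each. The overlap may therefore not hold on the scale of the fit. LAMC3 window 10, at chr11:101273985-101276984 with coding exon 5, held 1.67, 2.12, 3.03 and 2.84 CPM in Holstein 1 to 4 and 2.897, 3.44, 2.08 and 3.42 CPM in Angus 1 to 4. Its log2 fold change was -0.41 (SE 0.16, edgeR FDR = 0.641). ITGA9 window 35, at chr22:11047767-11050766 in an intron or non-coding part, held 0.759, 0.866, 1.51 and 1.66 CPM in Holstein 1 to 4 and 1.82, 1.704, 0.772 and 2.25 CPM in Angus 1 to 4. Here Angus 4 was highest, Angus 3 lay among the lower Holstein cultures, and the log2 fold change was -0.51 (SE 0.22, edgeR FDR = 0.821). ITGAX window 4, at chr25:27665601-27668600 with coding exon 8, held 0.961, 1.34, 1.4 and 0.901 CPM in Holstein 1 to 4 and 1.33, 1.67, 1.08 and 1.77 CPM in Angus 1 to 4, with a log2 fold change of -0.50 (SE 0.21, edgeR FDR = 0.824).

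**Figure D3:**
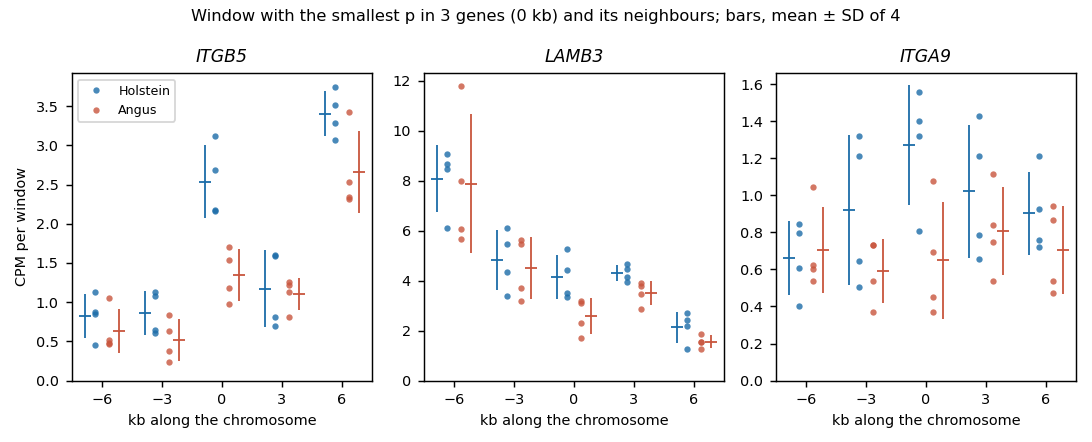
CPM of the window with the smallest p (0 kb) and of 2 neighbours on each side along the chromosome for ITGB5, LAMB3 and ITGA9, with 1 point per culture and bars for the breed mean ± SD (n = 4). In CPM before TMM the Holstein cultures separate from Angus at 0 kb only in ITGB5 (2.54 against 1.35 CPM). They separate at 0 and 3 kb in LAMB3, and in ITGA9 the breeds overlap at every position. TMM factors, not applied here, can change these orders.

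Summed over whole genes the breeds lay closer together. All 36 genes passed the filter and 0 were called by edgeR, against 0.038% of 18428 genes, with 0 at an unadjusted p under 0.05, against 1.43% of all genes. The quasi-likelihood test and DESeq2 also called 0. Each of the 36 intervals of 95% lay inside 2-fold either way, between log2 fold changes of -0.61 and 0.59, and the fitted values lay between -0.20 and 0.16, with 21 above 0 and 15 below. By role the median log2 fold change was 0.06 in collagen-binding alpha chains, 0.03 in laminin-binding alpha chains, -0.02 in RGD-binding alpha chains and 0.08 in laminin beta chains. It was 0.02 in leukocyte alpha chains, -0.04 in leukocyte beta chains and -0.03 in laminin gamma chains. In ITGA4 with ITGA9, the other beta chains and the laminin alpha chains it was -0.006, 0.004 and 0.003.

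ITGB5 had the smallest p of the genes higher in Holstein, with a mean per window of 1.06, 1.37, 1.35 and 1.46 CPM in Holstein 1 to 4 and 1.14, 1.21, 0.779 and 1.152 CPM in Angus 1 to 4 and a log2 fold change of 0.16 (SE 0.11). Angus 3 was the lowest culture, and Holstein 1 lay inside the Angus range. ITGA11 followed with 0.773, 1.25, 1.27 and 1.31 CPM in Holstein 1 to 4 and 1.08, 1.07, 0.7001 and 1.07 CPM in Angus 1 to 4 (log2 fold change 0.08, SE 0.12). LAMB2, whose values stand above, had 0.10 (SE 0.14). In the other direction ITGA2B had 0.8496, 1.12, 1.06 and 1.28 CPM in Holstein 1 to 4 and 1.05, 1.29, 0.806 and 1.43 CPM in Angus 1 to 4, a log2 fold change of -0.20 (SE 0.13). LAMC3 held 1.52, 2.02, 2.13 and 2.31 CPM in Holstein 1 to 4 and 1.83, 2.195, 1.43 and 2.46 CPM in Angus 1 to 4, which gave -0.11 (SE 0.10). LAMA2 gave -0.14 (SE 0.20). Adjusted p in edgeR was 1 for each of these 6 genes, and with total counts LAMC3 and LAMA2 turned to 0.013 and 0.012.

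**Figure D4:**
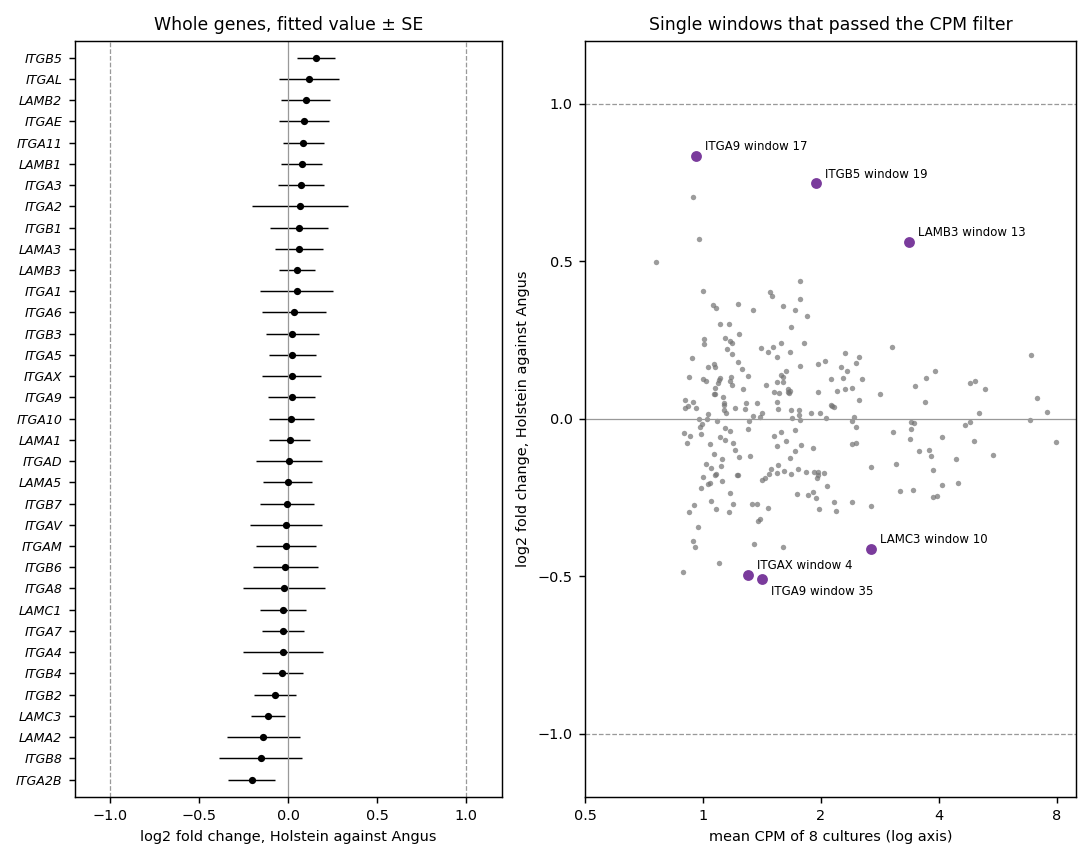
Left, log2 fold change of Holstein against Angus ± SE (n = 4 per breed) for the summed reads of 35 of the 36 genes. Right, log2 fold change against the mean CPM (log axis) for the 248 windows tested, with the 3 smallest p in each direction labelled. No gene or window reaches the dashed lines at 2-fold, and genes lie between -0.20 and 0.16.

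First windows, which bear on promoters, showed no call either, but at lower precision. With a filter of 3 reads in 4 libraries 35 of the 36 were tested, edgeR called 0, against 0.16% of 22537 first windows, and 0 had an unadjusted p under 0.05, against 4.02% of all. The quasi-likelihood test and DESeq2 likewise called 0 and had 0 at that p. The 95% interval lay inside 2-fold in 18 of the 35 and reached past it in 17, with bounds from -2.27 to 1.63 on the log2 scale, so the intervals of these 17 leave room for a 2-fold difference. ITGAV missed the filter, and its exact two-sided permutation p was 0.171, with 0.115 ± 0.0556 CPM in Holstein and 0.0737 ± 0.0218 CPM in Angus.

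ITGA6, ITGA5 and ITGA3 had the smallest p among first windows higher in Holstein. ITGA6 held 5, 8, 7 and 19 reads in the 4 Holstein cultures and 6, 10, 1 and 5 in Angus 1 to 4, a log2 fold change of 0.63 (SE 0.47). ITGA5 held 3, 7, 15 and 10 reads in the 4 Holstein cultures and 7, 9, 1 and 3 in Angus 1 to 4, a log2 fold change of 0.66 (SE 0.50). In both, Angus 3 with 1 read was lowest and the breeds overlapped. ITGA3 held 12, 13, 21 and 22 reads in the 4 Holstein cultures and 17, 15, 4 and 10 in Angus 1 to 4, with 0.42 (SE 0.34). With more reads in Angus followed LAMA2, with the reads given above and a log2 fold change of -1.09 (SE 0.60), ITGA11 with 4, 10, 20 and 18 reads in the 4 Holstein cultures and 30, 18, 6 and 15 in Angus 1 to 4 and -0.58 (SE 0.35), and ITGA4 with 15, 16, 30 and 31 reads in the 4 Holstein cultures and 29, 31, 29 and 18 in Angus 1 to 4 and -0.39 (SE 0.26). All of these overlapped between breeds, and the FDR in edgeR was 0.9999 for each of the 6. Single cultures moved these values by more than 1.5 times. Without Angus 3 the log2 fold change was 0.364 in ITGA6, 0.396 in ITGA5, 0.215 in ITGA3 and -0.243 in ITGA4. Without Angus 1 it was -0.622 in LAMA2 and -0.211 in ITGA11. Without Holstein 3 it was 0.269 in ITGA5 and -0.869 in ITGA11, and without Holstein 4 it was 0.41 in ITGA6.

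The other adhesion genes were taken from a list of 38 focal adhesion proteins and extracellular partners of integrins and laminins, of which 37 were found. First windows lay below the mean of the others in 28 of 36 of these genes with more than 1 window (77.8%, against 66.1% of all named genes), with medians of 0.709 and 1.93 CPM. With edgeR 2 of their 483 windows tested were called (0.414%, against 0.231% of all windows), both higher in Holstein, and 0 of 37 genes and 0 of 37 first windows. At an unadjusted p under 0.05 there were 26 windows (5.38%, against 4.94% of all windows), 22 with more reads in Holstein and 4 with more in Angus. At that p there were 0 genes, and 1 first window in each direction. The split by direction over all windows at that p was not counted. Several of the 22 share a gene, among them adjacent FBLN1 windows with log2 fold changes of 0.76, 0.84, 0.72 and 1.02. The 22 are thus not separate genes. The called windows lay in FBLN1, a fibulin of elastic fibres and basement membranes (log2 fold change 1.02, SE 0.17, edgeR FDR = 2.21e-05), and in BCAR1, a scaffold protein of focal adhesions (1.08, SE 0.21, edgeR FDR = 0.000412). The study had already reported a differentially methylated region in FBLN1, from these same data, and its list names none in BCAR1. This list was drawn up with earlier results of these data known, so its share of called windows is no independent evidence.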

How the data were processed

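MIRA-Seq was performed by the authors on sonicated DNA of 8 fibroblast cultures. Per the labels' processing notes CASAVA 1.7 was used, and the methods name NextGENe 2.3.4 and UMD v3.1. The authors deposited raw read counts per 3 kb window, without normalization, and the maximum coverage of each window as a signal not scaled for depth. Their handling of duplicate and multiply mapped reads is not given in the sources used here.

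CPM was computed here as reads divided by the total over all 902984 windows. Breeds came from the labels. The likelihood-ratio test, Benjamini-Hochberg adjustment, FDR under 0.1 and fold of at least 2 followed the study's methods. With them 267 windows of the genome were called here, 45 higher in Holstein and 222 in Angus. The study reports far fewer regions, split almost evenly between the breeds, and the reason for this gap was not tested. This likelihood-ratio test gave the main results. The test was run in edgeR 4.0.16 (R 4.3.3), adjusted over every window, gene or first window tested in the genome. TMM, the library size and estimateDisp were chosen here. Windows and summed genes needed 1 CPM in at least 4 libraries, first windows 3 reads in at least 4. The SE is the log2 fold change divided by the root of the likelihood-ratio statistic. The scripts were run on counts simulated at a single dispersion, with changes planted only in better covered rows. First windows with few reads were not covered by that run. Python 3.11.15 (pandas 2.3.3, numpy 2.4.6, scipy 1.17.1) served for levels and exact permutation tests. DESeq2 1.42.0, the quasi-likelihood test, other scaling and filters, autosomes only, a replicate block and leaving out cultures were tried as alternatives. Lists and members were chosen with earlier results of these data known.

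Named with all values are the 3 windows, genes and first windows with the smallest p in each direction, the 5 highest and 5 lowest first windows and genes, and the 5 highest other windows. No sequences are printed. The values of 1 member gene, which enters all counts and medians, are not reported here.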

Additional observations from a re-analysis of the deposited data

Results flagged for a closer look

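Within each breed of 4 cultures, 166 sets of values (first windows, gene means and named windows of the 36 genes) were searched for a culture far from the other 3, by Dixon's ratio above its critical value for 4, which about 1 in 20 sets passes by chance. This marked 9 sets, of which 8 had Holstein 1 or Angus 3, the libraries with the most concentrated reads, as the low culture. In Holstein 1 the CPM per window was 0.773 in ITGA11 (others 1.25 to 1.31), 0.535 in ITGA9 (others 0.877 to 0.939) and 0.728 in ITGAE (others 1.16 to 1.24). In Angus 3 it was 0.700 in ITGA11 (others 1.07 to 1.08), 0.193 in ITGB1 (others 0.353 to 0.380), 0.779 in ITGB5 (others 1.14 to 1.21) and 0.426 in LAMC1 (others 0.707 to 0.724). The first window of ITGA3 held 0.134 CPM in Angus 3, against 0.521 to 0.593 CPM in the other Angus cultures. The first window of LAMC3 was the exception, with 1.32 CPM in Angus 2 against 0.696 to 0.733 CPM in the others. All of these values are CPM before TMM. Holstein 1 and Angus 3 had the smallest TMM factors, 0.817 and 0.677, so their low values reflect a scale that TMM raises. The search was not repeated after TMM, and the part of the concentration of reads in these values was not tested.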

How the results depend on the processing

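No integrin or laminin gene or first window was called in any of the 19 settings run for each, and no window in 19 of 20. These counts include the main fit itself. They also include FDR under 0.05 and no fold change minimum, which only set other thresholds on that fit. The stricter FDR could not have added a call. With no fold change minimum 1 window was called, ITGB5 window 19. The count of member windows at an unadjusted p under 0.05, 11 as reported, was 6 with total counts only, 31 with no CPM filter (949 windows), 7 with 1 CPM required in all 8 samples, and 20 without Holstein 1 and Angus 3, a setting chosen after seeing the data. Leaving out each culture in turn gave 7 to 16 windows, lowest without Holstein 2, Holstein 3 or Angus 4 and highest without Holstein 1 or Angus 3, and 0 to 1 genes and 0 to 1 first windows. With the replicate block of animal numbers 10 windows had an unadjusted p under 0.05 and 0 were called. Same-numbered cultures did not deviate together (mean correlation -0.0202, range -0.218 to 0.105), so they share only a number, and the block changed no call. Of the log2 fold changes given for 18 windows, genes and first windows, 3 of 316 alternative values turned sign. With total counts LAMC3 as a gene turned to 0.013 and LAMA2 as a gene to 0.012. LAMA2 as a gene also turned to 0.061 without Angus 1, within a range of -0.305 to 0.061 when each culture was left out. The 316 include the settings that only changed a threshold, which repeat the main values and could not turn sign. The ratio of first to other windows lay between 0.535 and 0.569 when each culture was left out, and was 0.689 for the first 2 windows. The cause of these shifts was not tested. First windows hold few reads, and the p-values measure the spread between cultures, 1 per animal.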
